A study of Mus musculus with 12 samples.

Results

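The genes of the type I interferon response were followed in splenic B cells of transgenic mice carrying EFLmDREAM (Tg) and of wild type mice (WT), with and without activation. The response was taken as 41 listed gene symbols: interferon-stimulated genes, the cytosolic sensors of viral nucleic acid, the interferon receptor and its STAT and IRF transcription factors. A gene was measured by the probe sets that the array annotation assigns to it alone, which gave 39 genes with 70 probe sets, of 18193 genes in all. For 20 of the 39 more than 1 probe set was available, and the one with the highest mean level over all arrays then stood for the gene. Isg15 had only a probe set shared with Gm9706, whose values are given as those of both together and stay outside the counts. Ifi44 had no probe set of its own, and only its promoter was searched here.

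The 4 groups were Tg cells after 2 days with lipopolysaccharide (LPS, 20 µg/ml) and interleukin 4 (IL-4, 10 ng/ml), WT cells after the same 2 days, unstimulated Tg cells (day 0) and unstimulated WT cells (day 0), with 3 independent biological replicates each. All cells came from spleen by negative selection against CD43, which most resting B cells lack, with purity stated as above 98%, and 4 µg of total RNA was labelled for 1 Affymetrix mouse genome array per sample. EFLmDREAM is named as a transgene of DREAM, the calcium-binding transcriptional repressor encoded by Kcnip3. The labels name neither the promoter that drives it nor the strain, age or sex of the mice.

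Array medians were 5.97 to 6.05 on the log2 scale at day 0 and 5.36 to 5.41 at day 2, and arrays of 1 group correlated at 0.9844 to 0.9966. The number of arrays limits the precision. WT day 0 replicate 1 stood apart in RNA quality: its actin 5′ probe set read 2.22 log2 units below the 3′ one (a difference of -2.22), against -0.67 to -0.54 on the other day 0 arrays. WT day 2 replicate 1 was also the lowest of the day 2 arrays, at -1.36 against -0.98 to -0.43. Replicate 3 of each group had the Y-linked gene Eif2s3y at 3.33 to 3.78, against 8.27 to 9.55 on the other arrays, while Xist was at 9.41 to 12.12 on all 12. Measured B cell markers had mean levels of 11.07 to 11.19 in Tg and 10.93 to 11.11 in WT cells at day 2, and of 11.86 to 11.94 in Tg and 11.82 to 12 in WT cells at day 0. Kcnip3 itself did not pass the test at day 2 (0.03 ± 0.124, adjusted p = 0.976) or at day 0 (0.23 ± 0.124, adjusted p = 0.279), and no source used here states whether its probe sets read the transgene. Differences are log2 differences ± SE from limma with 3 arrays per group, and genes were called at an adjusted p under 0.05.

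Type I interferons (interferon alpha and beta) act through a receptor made of IFNAR1 and IFNAR2. The receptor's kinases phosphorylate STAT proteins, which join IRF9 and bind the interferon-stimulated response element (ISRE) in front of antiviral genes. B cells carry this receptor, and LPS, which is sensed through TLR4, can itself lead to interferon beta production in immune cells. IRF7, RIG-I, MDA5 and many other parts of the pathway are themselves interferon-stimulated, so the response can feed itself.

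The promoters of the genes were searched for the ISRE core, spelled GAAA, then any 2 bases, then GAAA, and for the gamma-activated site (GAS, bound by STAT dimers), spelled TTCNNNGAA, on both strands. Promoter windows of 300 bases from RefSeq (GRCm38.p6) matched 31 of the 41 listed genes. The ISRE core was present in 12 of these 31 genes (38.7%), against 3.99% of 27025 genes with such a window. GAS was present in 11 of the 31 (35.5%), against 9.55% of all genes. In Bst2 and Ifitm3 matches of both motifs overlapped. The windows shown belong to Ifit1, the gene with the largest rise on stimulation, to Rsad2 and Ifi44l, which were higher in Tg cells on both days, and to Ifnar1, the receptor gene that differed by genotype at day 0. Each is printed 5′ to 3′ in the direction of the gene, with the ISRE core in capitals for Ifit1 and Rsad2 and the GAS in capitals for Ifnar1. In both Ifit1 and Rsad2 the core lies on the other strand, so that the printed letters begin and end with TTTC. A match describes the letters only.
Ifit1, chr19:34640639-34640938, plus strand: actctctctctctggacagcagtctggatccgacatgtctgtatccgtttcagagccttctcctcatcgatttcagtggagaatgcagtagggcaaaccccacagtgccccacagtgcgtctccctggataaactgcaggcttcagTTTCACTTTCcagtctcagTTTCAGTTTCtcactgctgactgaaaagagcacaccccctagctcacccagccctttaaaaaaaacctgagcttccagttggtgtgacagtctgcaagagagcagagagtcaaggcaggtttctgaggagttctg
Rsad2, chr12:26456403-26456702, minus strand: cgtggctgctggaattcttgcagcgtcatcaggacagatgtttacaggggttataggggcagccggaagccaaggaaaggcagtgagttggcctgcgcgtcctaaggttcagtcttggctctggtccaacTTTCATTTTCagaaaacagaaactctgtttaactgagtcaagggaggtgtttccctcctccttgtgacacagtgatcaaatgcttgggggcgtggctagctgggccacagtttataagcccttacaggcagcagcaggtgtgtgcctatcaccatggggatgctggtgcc
Ifi44l, chr3:151762842-151763141, minus strand: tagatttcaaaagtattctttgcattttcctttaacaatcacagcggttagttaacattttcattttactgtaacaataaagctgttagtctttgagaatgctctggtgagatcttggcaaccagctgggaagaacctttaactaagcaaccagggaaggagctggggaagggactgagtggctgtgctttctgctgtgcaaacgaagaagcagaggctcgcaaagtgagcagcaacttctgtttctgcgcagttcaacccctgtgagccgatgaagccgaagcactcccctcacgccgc
Ifnar1, chr16:91484965-91485264, plus strand: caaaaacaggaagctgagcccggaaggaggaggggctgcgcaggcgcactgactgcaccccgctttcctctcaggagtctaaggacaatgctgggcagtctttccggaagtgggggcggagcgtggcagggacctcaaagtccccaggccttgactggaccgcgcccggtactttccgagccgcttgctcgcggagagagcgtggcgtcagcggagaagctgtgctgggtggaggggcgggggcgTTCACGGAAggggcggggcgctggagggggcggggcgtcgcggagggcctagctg
The Ifit1 window held 2 ISRE cores, with first bases at positions 147 and 166 counted from the first printed base. The Rsad2 window held 1, at position 131. Neither motif occurred in the Ifi44l window, and the Ifnar1 window held a GAS at position 246 and no ISRE core.

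The comparison of unstimulated Tg with unstimulated WT cells asks which genes of the response differed before activation. The antiviral genes Rsad2, Ifi44l, Ifitm3, Isg20 and Oasl2 were higher in Tg cells, and the receptor gene Ifnar1 was lower together with Trim25, Parp9 and Dtx3l, which encode ubiquitin and ADP-ribose enzymes. The other 30 of the 39 measured genes did not pass the test. The share called higher was 5 of 39, against 5.45% of all genes, and the share called lower was 4 of 39, against 4.90%. The median difference was 0.18 over the 39 genes and 0.01 over all genes.

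**Figure D1:**
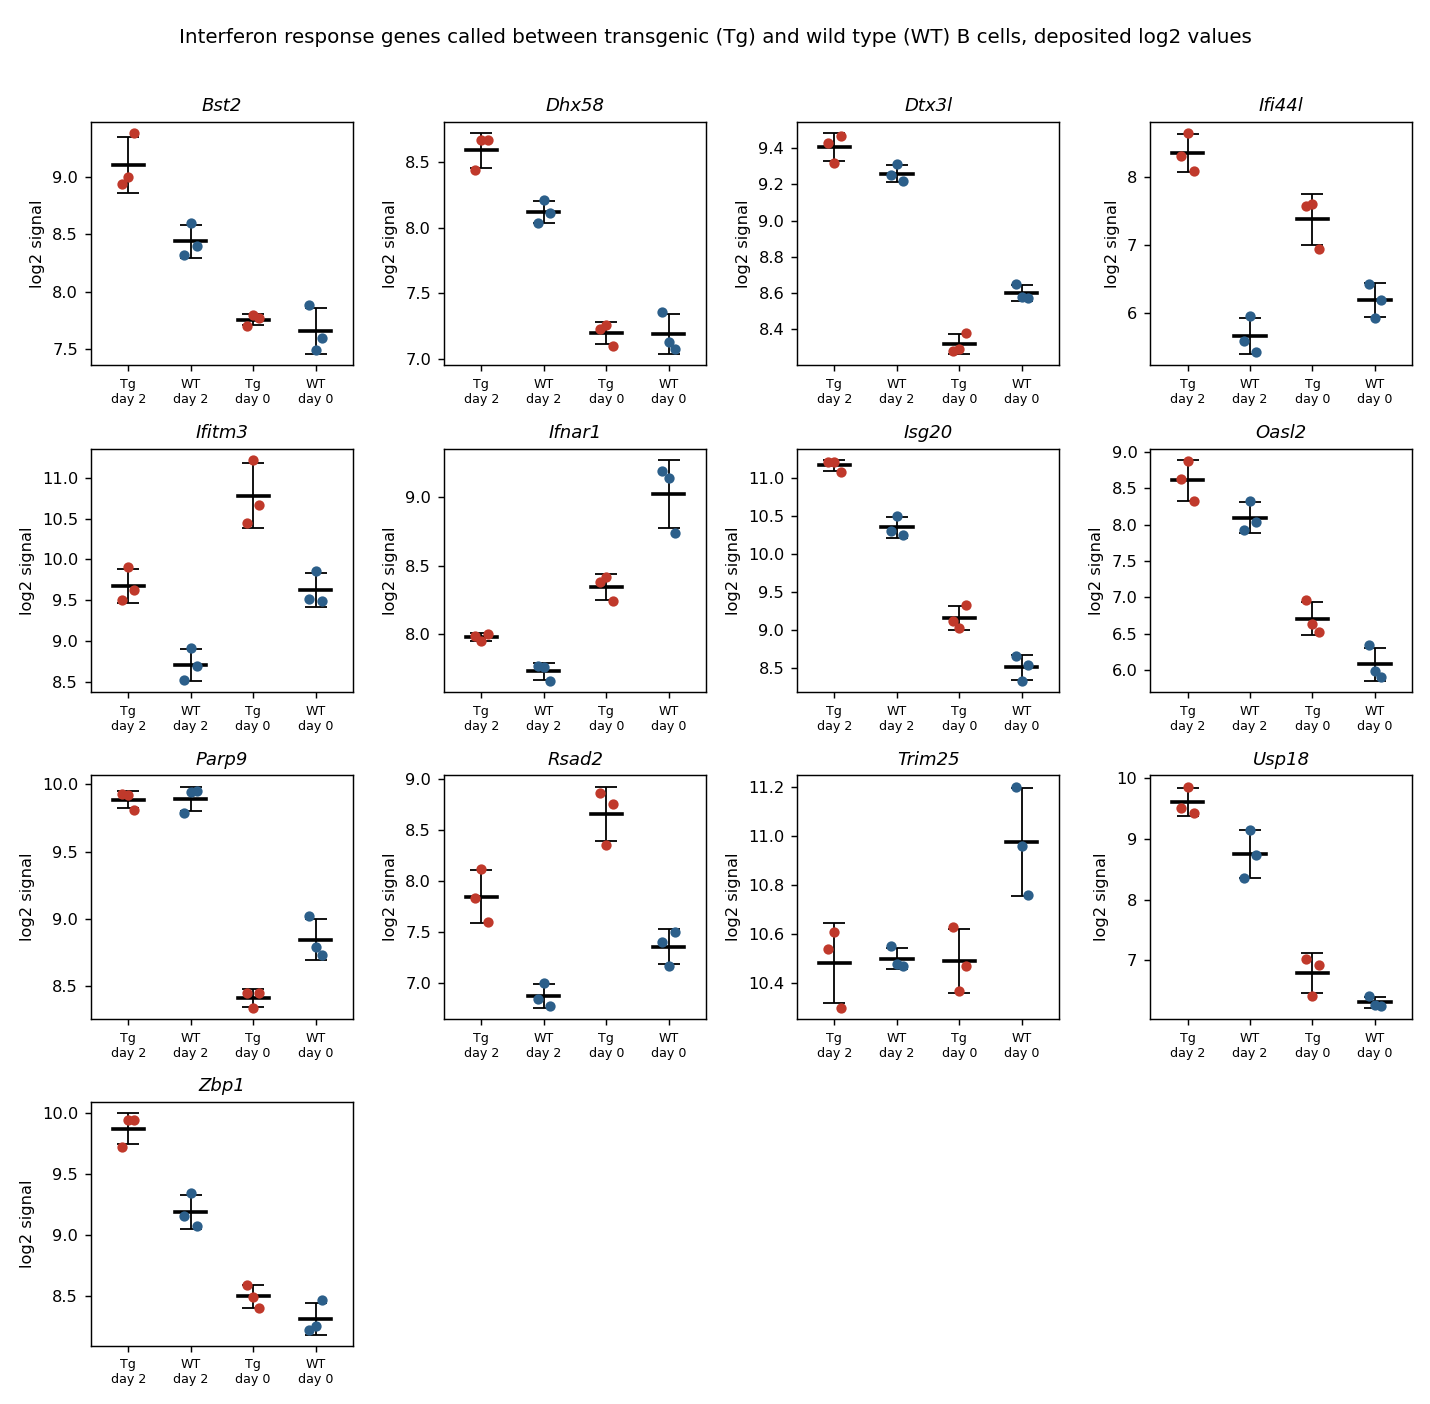
Deposited log2 levels of the 13 genes called in either genotype comparison, 1 panel per gene, with the groups Tg day 2, WT day 2, Tg day 0 and WT day 0 from left to right. Points are single arrays, and bars give the mean and SD of 3 arrays. Ifi44l and Rsad2 were higher in Tg cells at both days, and Ifnar1 was lower in Tg cells at day 0 (8.24 to 8.42, against 8.74 to 9.19 in WT cells).

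Among the receptor genes, Ifnar1 had deposited log2 levels of 8.38, 8.42 and 8.24 in Tg day 0 cells, against 9.19, 9.14 and 8.74 in WT day 0 cells. All 3 Tg arrays lay below all 3 WT arrays. The difference was -0.68 ± 0.107 (adjusted p = 0.00171), and without WT day 0 replicate 1 it was -0.59 (adjusted p = 0.00554). Its second probe set differed by -0.72 ± 0.223 and did not pass (adjusted p = 0.0609). Ifnar2, the other receptor chain, had 9.02, 9.11 and 9.18 in Tg cells and 9.21, 9.34 and 9.23 in WT cells, a small gap with a difference of -0.16 that was not called, and with array weights it was called at -0.22 (adjusted p = 0.0464).

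Among the listed genes of the response, no sensor or transcription factor was called at day 0 in the reported fit, without a block or array weights. Tlr7, Irf2 and Irf5, which belong to a further list, were called at day 0 and are given below. The sensor genes Ifih1 (MDA5), Ddx58 (RIG-I), Dhx58 (LGP2) and Zbp1 (a sensor of Z-form nucleic acid) differed by 0.46, -0.14, 0.01 and 0.18. Ifih1 had levels of 7.29, 7.06 and 6.84 in Tg cells and 6.95, 6.57 and 6.30 in WT cells, ranges that overlapped in part (adjusted p = 0.0811). It was called with the replicate number as a block (0.46, adjusted p = 0.0169) and with array weights (0.52, adjusted p = 0.00906). The transcription factor genes Stat2, Irf9, Irf7 and Irf1 differed by 0.21, 0.01, 0.23 and -0.19.

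Among the antiviral effectors, Rsad2 had levels of 8.86, 8.35 and 8.75 in Tg day 0 cells, against 7.40, 7.16 and 7.50 in WT day 0 cells. Rsad2 encodes viperin, an enzyme that makes a chain-terminating nucleotide. The groups did not overlap, and the difference was 1.30 ± 0.152 (2.46-fold, adjusted p = 0.000182). The other 2 Rsad2 probe sets were called as well, at 1.81 and 1.06. Ifitm3, whose membrane protein hinders fusion of viruses with endosomes, had levels of 10.45, 11.22 and 10.66 in Tg cells, against 9.52, 9.86 and 9.49 in WT cells. Every Tg array was above every WT array, by a mean of 1.15 ± 0.183 (adjusted p = 0.00175). Isg20, which encodes an RNA exonuclease, had 9.12, 9.03 and 9.33 in Tg cells and 8.66, 8.33 and 8.54 in WT cells. The ranges were apart by less than those of Rsad2, and the difference was 0.65 ± 0.107 (adjusted p = 0.00234). Bst2 (tetherin, which holds budding viruses at the cell surface), Eif2ak2 (the kinase PKR), Adar (an RNA-editing enzyme) and Cmpk2 (a mitochondrial nucleotide kinase) differed by 0.10, 0.27, -0.10 and 0.08 and were not called.

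Dimmer probe sets of Cmpk2 and Adar disagreed with the brightest ones. That of Cmpk2 had levels of 7.12, 7.39 and 7.37 in Tg day 0 cells, against 6.92, 6.78 and 6.65 in WT day 0 cells. One of Adar had 8.63, 8.44 and 8.73 in Tg cells, against 8.94, 9.20 and 9.09 in WT cells. Neither of these overlapped between the groups, and Cmpk2 was higher by 0.51 (adjusted p = 0.00882) and Adar lower, at -0.48 (adjusted p = 0.0352). The other dimmer Adar probe set went the opposite way, with 8.34, 8.19 and 8.21 in Tg cells, against 7.69, 8.09 and 7.93 in WT cells. Its groups did not overlap either, and its difference of 0.34 was not called (adjusted p = 0.0754).

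Ifi44l, an interferon-induced gene of uncertain molecular function, had levels of 7.58, 7.61 and 6.94 in Tg day 0 cells, against 6.43, 5.93 and 6.19 in WT day 0 cells. The groups did not overlap, although Tg replicate 3 lay nearer to the WT arrays than the other Tg arrays did. The difference was 1.19 ± 0.203 (adjusted p = 0.00282). The second Ifi44l probe set gave 1.23 (adjusted p = 0.00947), and the remaining, dim one gave 0.02 and was not called.

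The 2′-5′ oligoadenylate synthetase genes, a family with members that activate the RNA-degrading RNase L, ran from 0.09 (Oasl1) to 0.63 (Oasl2). Oasl2 had levels of 6.97, 6.64 and 6.52 in Tg cells, against 6.34, 5.99 and 5.91 in WT cells. The groups did not overlap, and the difference was 0.63 ± 0.167 (adjusted p = 0.0327). It was not called without WT replicate 2 or 3 or without Tg replicate 1 or 2, at differences between 0.50 and 0.67. With only the 6 unstimulated arrays in the fit, Oasl2, Parp9, Dtx3l and Trim25 kept their differences but were not called. The IFIT genes, which encode RNA-binding proteins that block translation of viral RNA, differed by 0.31 to 0.32 and the Mx genes, which encode dynamin-like GTPases, by -0.04 and 0.18, none of them called. In a fit that weights the arrays by their quality, Ifit1 (0.58, adjusted p = 0.0127), Ifit2 (0.47, adjusted p = 0.0275), Ifit3 (0.60, adjusted p = 0.0183) and Oas3 (0.43, adjusted p = 0.0186) were called higher at day 0.

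Among the genes of ISG15, ubiquitin and ADP-ribose conjugation, 3 of 6 were called lower in Tg cells at day 0, against 4.90% of all genes. For this class limma called 0 higher (1 at an unadjusted p under 0.05), against 5.45% of all genes. Parp9, a mono-ADP-ribosyltransferase family member, had levels of 8.45, 8.34 and 8.45 in Tg cells, against 9.02, 8.79 and 8.73 in WT cells. Dtx3l, the ubiquitin ligase that works in a complex with PARP9, had 8.28, 8.29 and 8.38 in Tg cells and 8.65, 8.58 and 8.57 in WT cells. For both genes all Tg arrays lay below all WT arrays, and the differences were -0.43 ± 0.0885 for Parp9 (adjusted p = 0.00871) and -0.28 ± 0.0708 for Dtx3l (adjusted p = 0.0252). Trim25, a ubiquitin ligase that acts on RIG-I, had 10.63, 10.37 and 10.47 in Tg cells and 11.20, 10.96 and 10.76 in WT cells. The highest Tg array lay just under the lowest WT array, and the difference was -0.48 ± 0.116 (adjusted p = 0.0208). The other 2 Trim25 probe sets gave -0.32 (adjusted p = 0.0676) and 0.11 (adjusted p = 0.423), and the second Dtx3l probe set -0.48 (adjusted p = 0.265), none of them called. Without WT replicate 1, the array with the low actin 5′ signal, Trim25 (-0.37, adjusted p = 0.0683) and Dtx3l (-0.26, adjusted p = 0.0735) were not called. Nor were they without WT replicate 2 or Tg replicate 2, Dtx3l also without Tg replicate 1 and Trim25 also without Tg replicate 3.

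Isg15 itself, the ubiquitin-like protein gene, could be read only together with Gm9706. Their shared probe set had levels of 7.45, 7.30 and 7.29 in Tg day 0 cells, against 6.41, 6.91 and 6.59 in WT day 0 cells. The groups did not overlap, and the difference was 0.71 ± 0.148 (adjusted p = 0.00961). Herc6, the ligase that attaches ISG15 in mice, differed by 0.16 at its brightest probe set and was not called. A dimmer Herc6 probe set had levels of 7.55, 7.31 and 7.47 in Tg cells, against 6.48, 6.89 and 6.92 in WT cells. It was called at 0.68 (adjusted p = 0.00312), as was the dimmest one at 0.61 (adjusted p = 0.00288), whereas the other dimmer one gave -0.07 and was not called (adjusted p = 0.809). The Herc6 probe sets thus differed in call and in sign.

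Markers of other blood cells were higher in the same unstimulated Tg arrays, where 5.45% of all genes were called higher. Of 10 measured granulocyte markers all 10 were called higher, with mean levels of 9.32 to 9.84 in Tg arrays, against 6.21 to 6.47 in WT arrays. Of 14 myeloid markers 11 were higher (8.48 to 8.83 in Tg, against 7.32 to 7.60 in WT), and of 8 erythroid markers 7 were higher (7.34 to 7.80 in Tg, against 5.92 to 6.46 in WT). Of 10 T and NK cell markers 4 were higher (6.96 to 7.09 in Tg, against 6.27 to 6.64 in WT). Plasmacytoid dendritic cells are known as strong interferon producers, and 0 of 8 of their markers were called by limma (7.38 to 7.48 in Tg, against 7.36 to 7.50 in WT; 1 higher and 1 lower at an unadjusted p under 0.05). In bulk RNA, more cells of a type and more RNA per cell cannot be told apart. The part of these other markers in the differences of Rsad2, Ifi44l, Ifitm3, Isg20 and Oasl2 was not tested.

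The comparison of stimulated Tg with stimulated WT cells asks the same question after activation. Ifi44l, Rsad2, Ifitm3, Usp18, Isg20, Zbp1, Bst2 and Dhx58 were higher in Tg cells, and the largest difference by far was that of Ifi44l at 6.47-fold. These are 8 of 39 genes called higher, against 1.24% of all genes. No gene was called lower by limma, against 1.10% of all genes, and none was lower at an unadjusted p under 0.05, whereas 23 were higher at that level. The share of all genes at the unadjusted level was not counted. The median difference was 0.34 over the 39 genes and 0.00 over all genes. Of the 39 differences 35 were positive, against 9132 of all 18193 genes.

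**Figure D2:**
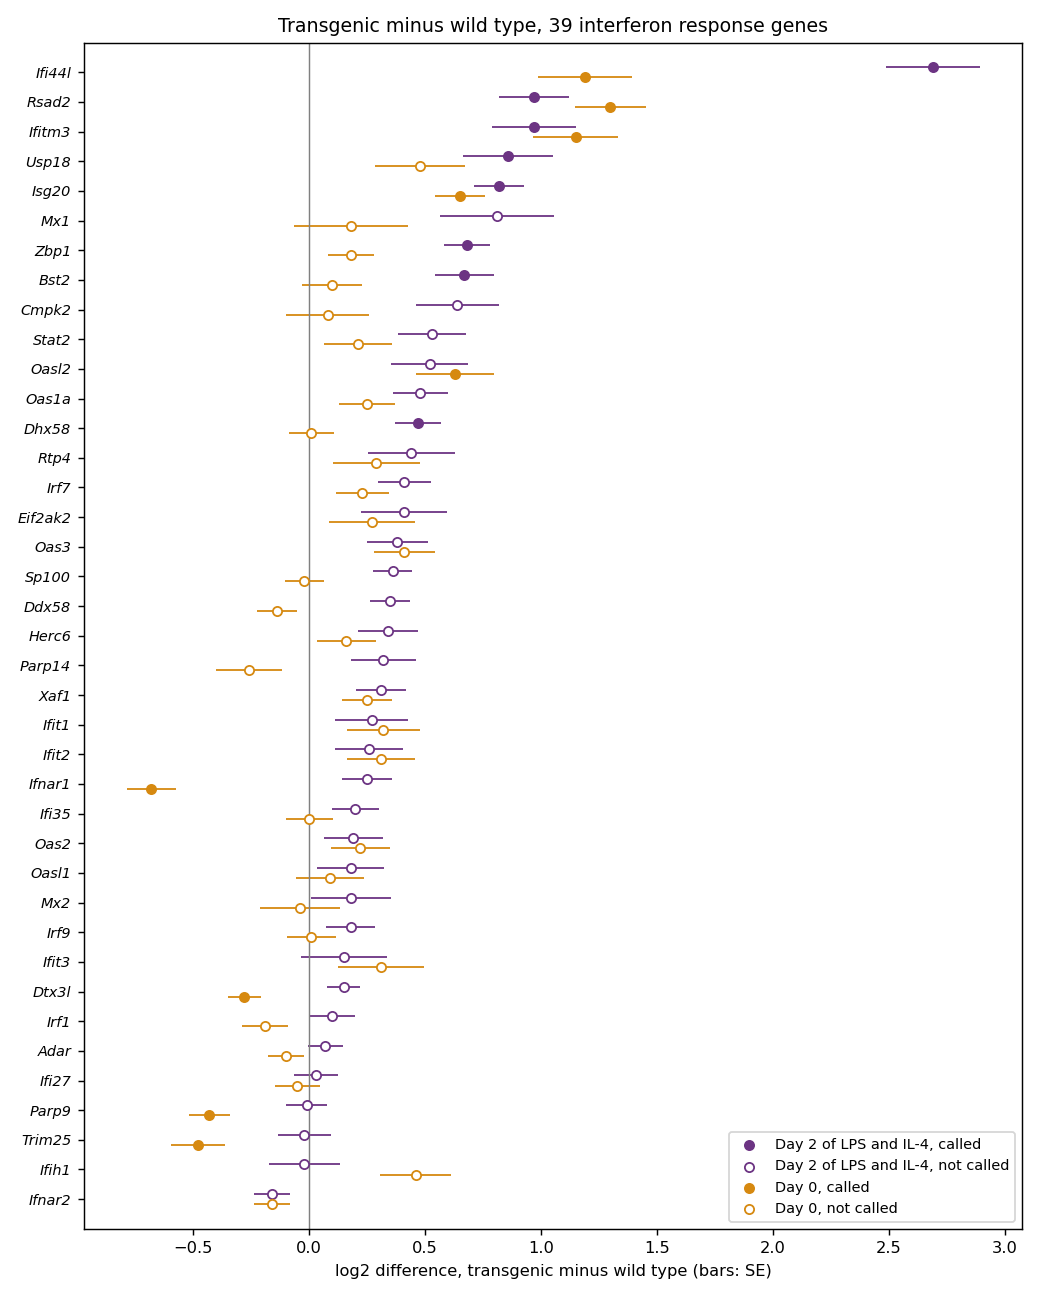
Log2 difference of Tg minus WT cells for each of the 39 genes, at day 0 and at day 2. Points are limma estimates with their SE, and filled points are called at an adjusted p under 0.05. At day 2 the estimates lie right of 0 for 35 genes, with Ifi44l farthest at 2.69, and at day 0 Ifnar1 lies farthest left at -0.68.

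Ifi44l had levels of 8.31, 8.65 and 8.09 in Tg day 2 cells, against 5.59, 5.95 and 5.43 in WT day 2 cells. The gap between the groups was several times the spread within either, and the difference was 2.69 ± 0.203 (adjusted p = 7.92e-06). Its second probe set differed by 2.42 (adjusted p = 0.000193) and the dim one by 0.39 (adjusted p = 0.0236).

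Among the effectors, Rsad2 had levels of 7.83, 8.11 and 7.59 in Tg day 2 cells, against 6.84, 7.0 and 6.77 in WT day 2 cells. Ifitm3 had 9.50, 9.91 and 9.62 in Tg cells, against 8.52, 8.91 and 8.69 in WT cells. Both genes were higher on every Tg array, each by 0.97, with SE 0.152 for Rsad2 (adjusted p = 0.00416) and 0.183 for Ifitm3 (adjusted p = 0.0147). The other 2 Rsad2 probe sets were called too, at 1.10 and 0.57. Isg20 had 11.21, 11.22 and 11.09 in Tg cells, against 10.31, 10.51 and 10.25 in WT cells. The arrays of each group lay close together and the groups did not overlap, with a difference of 0.82 ± 0.107 (adjusted p = 0.00118). Bst2 had 8.94, 9.0 and 9.39 in Tg cells and 8.32, 8.60 and 8.40 in WT cells, again without overlap (0.67 ± 0.129, adjusted p = 0.017). Cmpk2, the neighbour of Rsad2 in the genome, had 8.41, 8.74 and 8.29 in Tg cells and 7.80, 8.06 and 7.65 in WT cells. Its difference of 0.64 did not pass the test although the ranges were apart (adjusted p = 0.109). The dimmer Cmpk2 probe set had 6.85, 6.94 and 6.91 in Tg cells and 6.21, 6.48 and 6.19 in WT cells and was called, at 0.61 (adjusted p = 0.00839). Eif2ak2 differed by 0.41 at its brightest probe set, which was not called, and by 0.55 at a dimmer one, which was (adjusted p = 0.0478). That dimmer Eif2ak2 probe set had 6.65, 6.94 and 6.67 in Tg cells and 5.96, 6.49 and 6.16 in WT cells.

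Of the sensors, Zbp1 had levels of 9.72, 9.94 and 9.94 in Tg day 2 cells, against 9.15, 9.34 and 9.07 in WT day 2 cells. Dhx58, which modulates signalling by RIG-I and MDA5, had 8.44, 8.67 and 8.67 in Tg cells, against 8.04, 8.21 and 8.11 in WT cells. Neither gene's groups overlapped, and the differences were 0.68 ± 0.1 for Zbp1 (adjusted p = 0.00283) and 0.47 ± 0.0973 for Dhx58 (adjusted p = 0.0259). The second Dhx58 probe set was called at 0.72 (adjusted p = 0.0487), whereas the third at 0.12 and the second one of Zbp1 at 1.02 were not. Ddx58 differed by 0.35 (adjusted p = 0.0639) and Ifih1 by -0.02, and neither was called.

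Usp18, the protease that takes ISG15 off its targets and dampens receptor signalling, had levels of 9.51, 9.86 and 9.43 in Tg cells, against 8.35, 9.14 and 8.74 in WT cells. The WT arrays spread more widely than the Tg arrays, and the groups did not overlap. The difference was 0.86 ± 0.194 (adjusted p = 0.0426), and with the replicate number as a block it was not called (adjusted p = 0.058), nor was it on quantile-normalized values or in a fit of the 6 stimulated arrays alone. The 3 genes lower at day 0 in this class, Parp9, Dtx3l and Trim25, differed by -0.01, 0.15 and -0.02 at day 2 and were not called. The shared probe set of Isg15 and Gm9706 had 9.82, 9.88 and 10.37 in Tg cells, against 9.36, 9.49 and 9.30 in WT cells. It was higher on every Tg array, by 0.64 ± 0.148 (adjusted p = 0.0473).

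Receptors, transcription factors, the IFIT, OAS and Mx families had no called member at day 2. Ifnar1 had 7.99, 7.95 and 8.0 in Tg cells and 7.77, 7.76 and 7.66 in WT cells, narrow ranges that did not overlap but a difference of 0.25 that was not called (adjusted p = 0.387). Stat2, the STAT that carries IRF9, had 7.16, 7.25 and 7.38 in Tg cells and 6.76, 6.90 and 6.53 in WT cells. Its difference of 0.53 was not called without the block (adjusted p = 0.104) and was called with it (adjusted p = 0.0494). Sp100, a nuclear body protein, differed by 0.36, with adjusted p = 0.0516 without and 0.0244 with the block. Irf7, the factor that amplifies interferon production, differed by 0.41 (adjusted p = 0.109), and Irf1 by 0.10. Irf9 had 8.21, 8.32 and 8.52 in Tg cells and 8.07, 8.25 and 8.20 in WT cells, which overlapped, and differed by 0.18. Mx1 had 8.29, 8.42 and 7.84 in Tg cells and 7.30, 7.65 and 7.18 in WT cells, which did not overlap, yet its difference of 0.81 did not pass (adjusted p = 0.155). The OAS genes differed by 0.18 to 0.52, and the IFIT genes by 0.15 to 0.27. With array weights Mx1 (0.81, adjusted p = 0.0328), Oas1a (0.49, adjusted p = 0.0255), Cmpk2, Ddx58 and Sp100 were called higher at day 2, and with only the 6 stimulated arrays Oas1a and Stat2 were.

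Usp18, Bst2, Dhx58 and Ifitm3 each lost the call when single arrays were left out, at differences that stayed between 0.43 (Dhx58) and 0.94 (Usp18). The arrays concerned were WT replicate 1, with the lowest actin 5′ signal at day 2, and WT replicate 3 for all 4 genes, WT replicate 2 for Dhx58, Tg replicate 1 for Usp18, Tg replicate 2 for Usp18, Dhx58 and Ifitm3, and Tg replicate 3 for Usp18, Bst2 and Dhx58. Of the markers of other cells, 4 of 14 myeloid ones were higher in Tg cells at day 2 (6.30 to 6.66 in Tg, against 5.68 to 5.91 in WT). So were 3 of 10 granulocyte ones (5.29 to 5.50 in Tg, against 4.86 to 4.93 in WT). The share called higher over all genes was 1.24%. Of the T and NK cell markers 1 of 10 was higher (Ccl5), and limma called 0 of 8 erythroid markers (1 at an unadjusted p under 0.05) and 0 of 8 plasmacytoid dendritic cell markers (0 at an unadjusted p under 0.05). Their part in the differences at day 2 was not tested.

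The comparison of day 2 with day 0 in each genotype asks how activation by LPS and IL-4 changed the response. Most of its genes rose in each genotype, led by Ifit1 at 15.7-fold in Tg and 15.7-fold in WT cells. Ifitm3, Ifnar2, Irf1, Ddx58 and Sp100 were called lower in both genotypes. Rsad2 was called lower in Tg cells only, and Ifnar1 and Trim25 in WT cells only. In Tg cells 27 of 39 genes were called higher, against 35.2% of all genes, and 6 lower, against 23.3%. In WT cells 24 of 39 were called higher, against 36.0% of all genes, and 7 lower, against 24.0%. The median change was 1.20 in Tg and 0.68 in WT cells, against 0.08 over all genes in either.

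Values across days are given on quantile-normalized log2 levels, because the deposited medians differ between the days. On the deposited levels the median change of all probe sets was -0.40 in either genotype, on the quantile-normalized ones 0.0403 in Tg and 0.0374 in WT cells, and with each array's median subtracted 0.24 and 0.217. Over all probe sets 13556 were called higher and 11284 lower in Tg cells, against 6181 and 29226 on the deposited levels and 22217 and 8104 with medians subtracted. In WT cells the counts were 13813 higher and 11748 lower, against 6363 and 29192 on the deposited levels and 21383 and 8794 with medians subtracted. Called higher on all 3 scales were 25 of the 39 genes in Tg and 21 in WT cells, and called lower on all 3 was 1 gene in each, Ifitm3 in Tg and Ifnar1 in WT cells. The share of all genes called on all 3 scales was not counted.

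**Figure D3:**
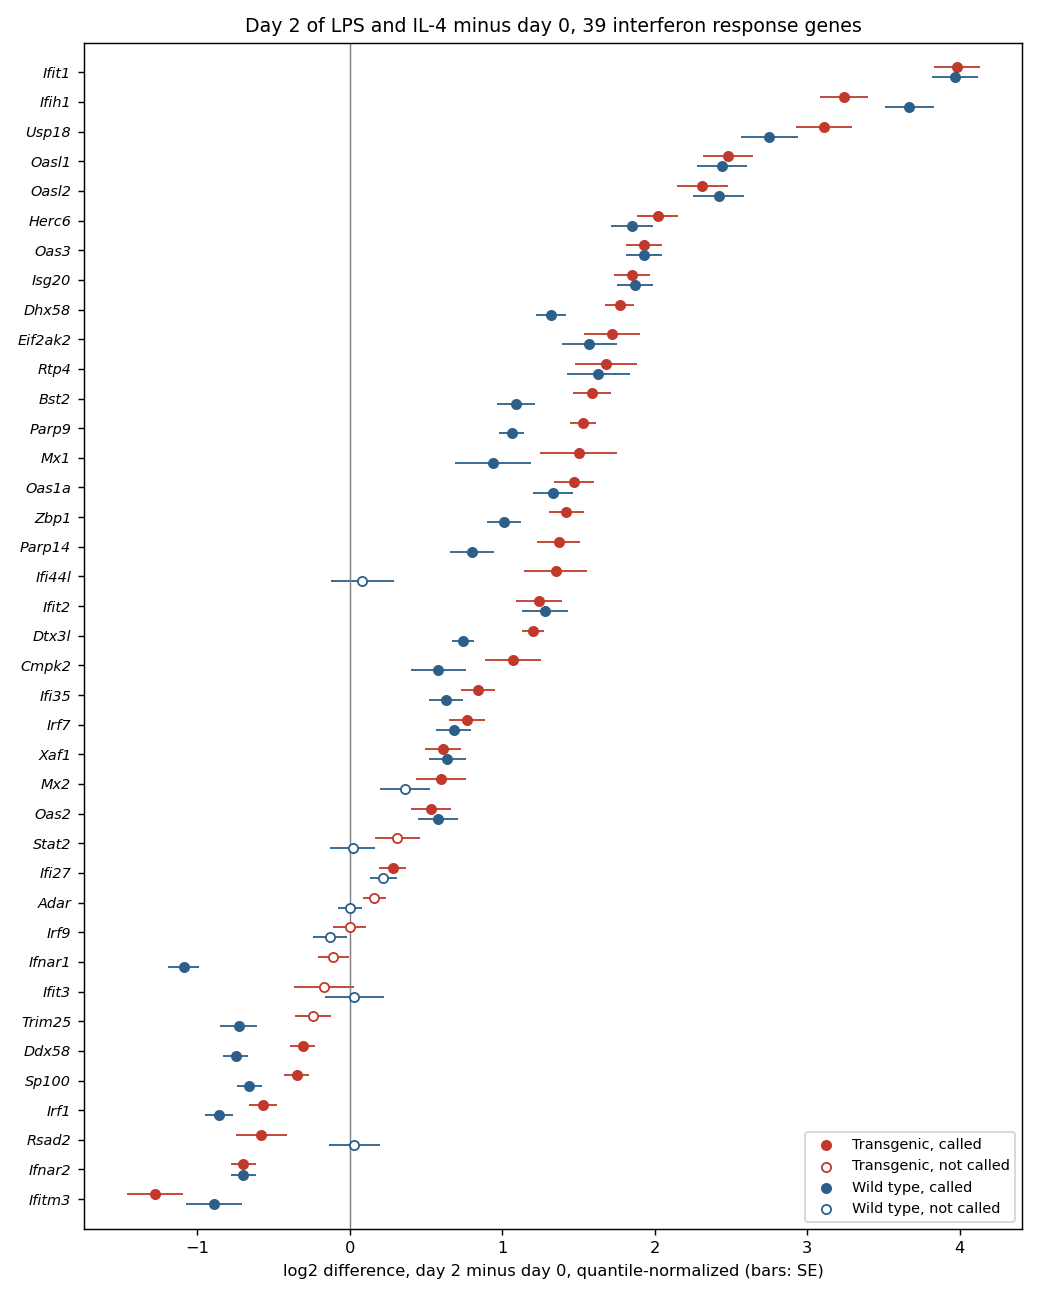
Log2 change on stimulation, day 2 minus day 0 on quantile-normalized levels, for each of the 39 genes in Tg and in WT cells. Points are limma estimates with their SE, and filled points are called at an adjusted p under 0.05. Ifit1 lies farthest right in both genotypes (3.98 in Tg, 3.97 in WT), and Ifi44l changed by 1.35 in Tg and 0.08 in WT cells.

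Ifit1, whose protein binds viral RNA that lacks a host-type cap, had quantile-normalized levels of 9.08, 9.28 and 9.29 in Tg day 2 cells, against 5.50, 5.03 and 5.19 in Tg day 0 cells. In WT cells it had 8.98, 9.06 and 8.79 at day 2, against 5.28, 4.69 and 4.95 at day 0. The days were far apart in both genotypes, with changes of 3.98 ± 0.151 in Tg (adjusted p = 2.43e-10) and 3.97 ± 0.151 in WT cells (adjusted p = 2.05e-10). Ifit2 rose by 1.24 in Tg and 1.28 in WT cells. Ifit3 changed by -0.17 in Tg and 0.03 in WT cells and was not called on this scale.

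All 5 OAS genes rose in both genotypes on the quantile-normalized levels, and on the deposited levels the rise of Oas2 was not called in either. Oasl1 had quantile-normalized levels of 10.18, 10.42 and 10.14 in Tg day 2 cells, against 8.11, 7.30 and 7.88 in Tg day 0 cells. In WT cells Oasl1 had 9.93, 10.21 and 10.06 at day 2, against 7.71, 7.51 and 7.68 at day 0. The days were apart in both genotypes. Oasl2 had 8.70, 8.94 and 8.45 in Tg day 2 cells, against 6.66, 6.32 and 6.19 in Tg day 0 cells, and 8.06, 8.44 and 8.13 in WT day 2 cells, against 6.08, 5.70 and 5.58 in WT day 0 cells. Neither gene's days overlapped, and the changes were 2.48 in Tg and 2.44 in WT cells for Oasl1, and 2.31 in Tg and 2.42 in WT cells for Oasl2. Oas3 rose by 1.93 in both genotypes, Oas1a by 1.47 in Tg and 1.33 in WT cells, and Oas2 by 0.53 in Tg and 0.58 in WT cells. On the deposited levels Oas2 changed by 0.11 in Tg (adjusted p = 0.434) and 0.14 in WT cells (adjusted p = 0.321). Mx1 rose by 1.5 ± 0.251 in Tg and 0.94 ± 0.251 in WT cells, and Mx2 by 0.60 in Tg cells, with a change of 0.36 in WT cells that was not called. On the deposited levels the change of Mx1 in WT cells was 0.46 (adjusted p = 0.105), and Mx2 changed by 0.03 in Tg (adjusted p = 0.877) and -0.19 in WT cells (adjusted p = 0.32), none of which was called.

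The sensor gene Ifih1 had quantile-normalized levels of 10.04, 10.12 and 9.85 in Tg day 2 cells, against 7.01, 6.76 and 6.52 in Tg day 0 cells. In WT cells it had 10.03, 10.04 and 9.89 at day 2, against 6.68, 6.28 and 5.99 at day 0. It thus rose 9.48-fold in Tg and 12.7-fold in WT cells. Dhx58 rose by 1.77 in Tg and 1.32 in WT cells, and Zbp1 by 1.42 in Tg and 1.01 in WT cells. Ddx58, the RIG-I gene, had quantile-normalized levels of 9.06, 9.23 and 8.96 in Tg day 2 cells, against 9.46, 9.31 and 9.43 in Tg day 0 cells. In WT cells Ddx58 had 8.72, 8.83 and 8.67 at day 2, against 9.48, 9.53 and 9.46 at day 0. The stimulated arrays were lower, with changes of -0.31 in Tg and -0.75 in WT cells, but with array medians subtracted the change in Tg cells was 0.34, and the dimmest Ddx58 probe set rose by 0.64 in Tg cells.

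Among the genes of ISG15 conjugation, Usp18 had quantile-normalized levels of 9.49, 9.83 and 9.42 in Tg day 2 cells, against 6.72, 6.10 and 6.60 in Tg day 0 cells. In WT cells the levels of Usp18 were 8.44, 9.14 and 8.76 at day 2, against 6.16, 5.98 and 5.94 at day 0. The days were apart in both genotypes, and the changes were 3.11 ± 0.186 in Tg (8.6-fold) and 2.75 ± 0.186 in WT cells (6.74-fold). Herc6 had 9.20, 9.38 and 9.16 in Tg day 2 cells, against 7.50, 6.99 and 7.18 in Tg day 0 cells, and 8.96, 9.01 and 8.74 in WT day 2 cells, against 7.26, 6.99 and 6.89 in WT day 0 cells. It rose by 2.02 in Tg and 1.85 in WT cells, and the shared probe set of Isg15 and Gm9706 by 2.89 in Tg and 2.99 in WT cells. Parp9, Parp14 and Dtx3l rose as well, by 1.53, 1.37 and 1.20 in Tg and by 1.06, 0.80 and 0.74 in WT cells. The dimmer Parp14 probe set rose by 0.47 in Tg cells (adjusted p = 0.00121), and its change of 0.02 in WT cells was not called (adjusted p = 0.896).

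Trim25 depended on the probe set and on the scale. Its brightest probe set had quantile-normalized levels of 10.44, 10.52 and 10.21 in Tg day 2 cells, against 10.78, 10.48 and 10.62 in Tg day 0 cells, and 10.42, 10.38 and 10.36 in WT day 2 cells, against 11.35, 11.11 and 10.90 in WT day 0 cells. It changed by -0.24 in Tg cells, which was not called, and by -0.73 in WT cells (adjusted p = 0.000151). With array medians subtracted it changed by 0.63 in Tg and 0.14 in WT cells, and the dimmest Trim25 probe set rose by 1.12 in Tg and 1.05 in WT cells.

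The effectors split on stimulation. Isg20, Eif2ak2 and Bst2 rose, by 1.85, 1.72 and 1.59 in Tg and by 1.87, 1.57 and 1.09 in WT cells, and Cmpk2 by 1.07 in Tg and 0.58 in WT cells. The WT change of Cmpk2 was not called without WT day 0 replicate 3 (0.40) or WT day 2 replicate 2 (0.47), nor on the deposited levels (0.20, adjusted p = 0.314). The dimmer Cmpk2 probe set changed by 0.15 in Tg (adjusted p = 0.257) and 0.09 in WT cells (adjusted p = 0.476) and was not called. Ifitm3 had quantile-normalized levels of 9.48, 9.87 and 9.60 in Tg day 2 cells, against 10.60, 11.38 and 10.81 in Tg day 0 cells. In WT cells Ifitm3 had 8.59, 8.94 and 8.72 at day 2, against 9.48, 9.89 and 9.54 at day 0. It was lower on every stimulated array, with changes of -1.28 ± 0.184 in Tg (adjusted p = 5.66e-05) and -0.89 ± 0.184 in WT cells (adjusted p = 0.00105), and the WT call was lost with array medians subtracted. Rsad2 changed by -0.58 ± 0.166 in Tg cells (adjusted p = 0.00897) and by 0.03 in WT cells. The Tg call of Rsad2 was lost with array medians subtracted (-0.17), and on the deposited levels its WT change was -0.48. The brightest Adar probe set changed by 0.16 in Tg and 0.00 in WT cells and was not called. With array medians subtracted it was called higher, at 0.86 and 0.66, and on the deposited levels in Tg cells only (0.22). A dimmer Adar probe set was called lower, at -0.35 in Tg and -0.98 in WT cells. The other dimmer Adar probe set was called higher, at 0.76 and 0.96. In the same comparison all 10 granulocyte and 13 of 14 myeloid markers were lower at day 2 in Tg cells, against 23.3% of all genes. In WT cells 6 of 10 and 10 of 14 were lower, against 24.0% of all genes. The part of these markers in the changes of Ifitm3 and Rsad2 was not tested.

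Of the remaining interferon-stimulated genes Rtp4, an interferon-induced chaperone of cell-surface receptors, rose by 1.68 in Tg and 1.63 in WT cells. Ifi35 rose by 0.84 in Tg and 0.63 in WT cells, and Xaf1, which antagonises an inhibitor of apoptosis, by 0.61 in Tg and 0.64 in WT cells. Ifi27 rose by 0.28 in Tg cells, a call lost without Tg day 0 replicate 2, Tg day 2 replicate 1 or Tg day 2 replicate 3 (0.23 to 0.26). In WT cells the change of Ifi27 was 0.22, with adjusted p = 0.0527 without and 0.0428 with the replicate number as a block. Sp100 changed by -0.35 in Tg and -0.66 in WT cells, and by 0.32 in Tg cells with array medians subtracted.

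Of the transcription factor genes listed for the response Irf7 rose and Irf1 fell. Neither Ifnar1 nor Ifnar2, the interferon receptor genes, rose in either genotype. Irf7 had quantile-normalized levels of 9.04, 9.36 and 9.25 in Tg day 2 cells, against 8.58, 8.23 and 8.52 in Tg day 0 cells. In WT cells Irf7 had 8.66, 9.02 and 8.78 at day 2, against 8.10, 8.14 and 8.17 at day 0. It was higher on every stimulated array, by 0.77 ± 0.117 in Tg and by 0.68 ± 0.117 in WT cells. Stat2 and Irf9 were not called in either genotype, at 0.31 and 0.00 in Tg cells and at 0.02 and -0.13 in WT cells, although the second Stat2 probe set rose by 0.76 in Tg cells (adjusted p = 3.37e-05). Irf1, which drives many of the same genes, had 9.27, 9.28 and 9.46 in Tg day 2 cells, against 9.93, 9.92 and 9.87 in Tg day 0 cells. In WT cells Irf1 had 9.21, 9.10 and 9.30 at day 2, against 10.23, 10.02 and 9.94 at day 0. Its quantile-normalized levels fell by 0.57 in Tg cells and fell by 0.86 in WT cells, whereas with array medians subtracted the change in Tg cells was 0.14. Ifnar2 had 8.46, 8.41 and 8.39 in Tg day 2 cells, against 9.04, 9.10 and 9.24 in Tg day 0 cells, and 8.62, 8.55 and 8.44 in WT day 2 cells, against 9.13, 9.31 and 9.27 in WT day 0 cells. It fell by 0.70 in both genotypes on this scale, and its other 2 probe sets were not called. For Ifnar2, as for the falls of Ddx58, Irf1, Sp100 and Trim25, the call did not hold on all 3 scales.

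Whether the change on stimulation differed between the genotypes was tested as the interaction, fitted on the deposited levels. Ifnar1 and Ifi44l were called, both with a more positive change in Tg cells, which is 2 of 39 genes against 0.588% of all genes. No gene was called with a more negative change, against 1.39% of all genes. At an unadjusted p under 0.05 limma gave 12 genes more positive and 1 more negative, and the share of all genes at that level was not counted. The median interaction was 0.19 over the 39 genes and -0.01 over all genes.

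**Figure D4:**
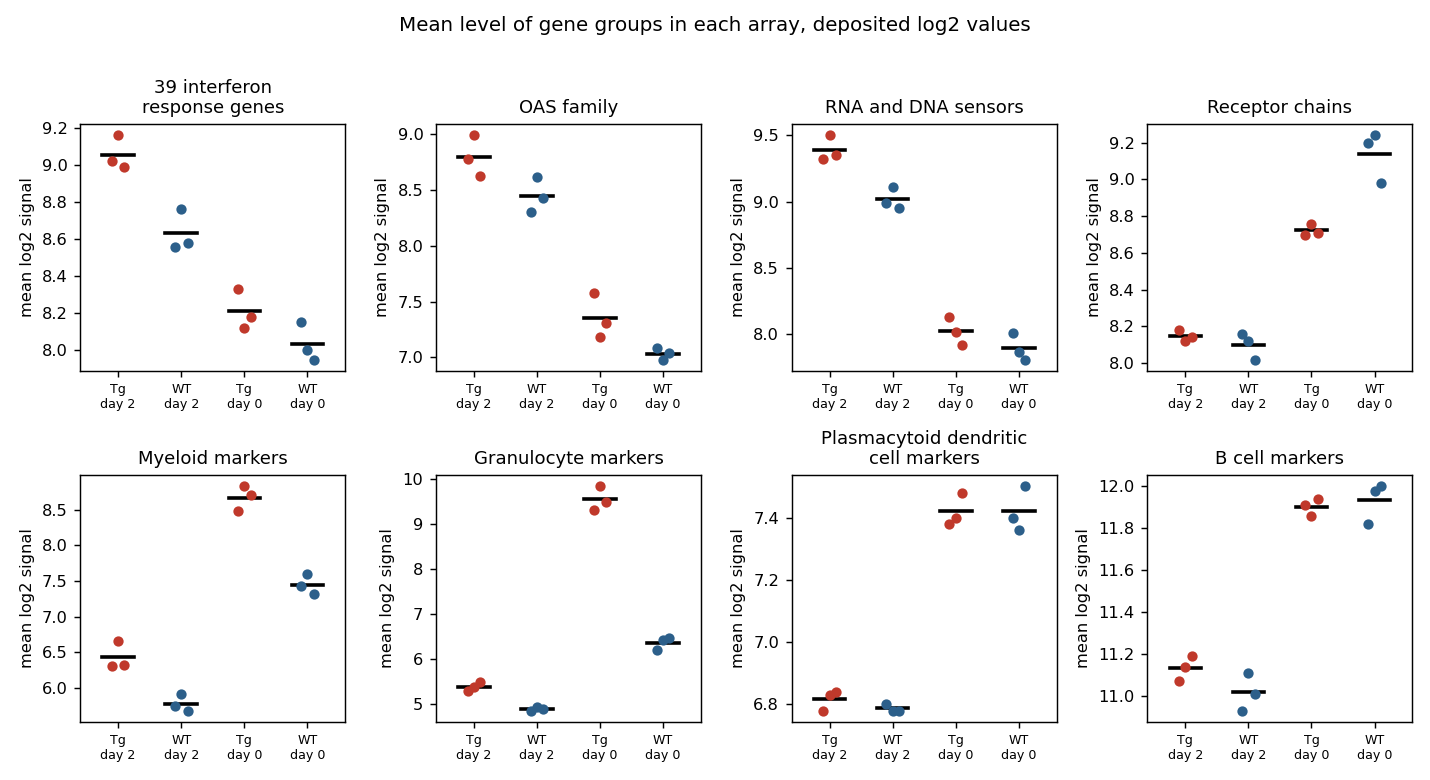
Mean deposited log2 level per array of the 39 genes, of 3 of their classes and of 4 marker lists, with the groups Tg day 2, WT day 2, Tg day 0 and WT day 0 from left to right. Points are arrays and lines are means of 3 arrays. The mean of the 39 genes lies at 8.99 to 9.16 in Tg and 8.56 to 8.76 in WT cells at day 2, and the granulocyte markers lie at 9.32 to 9.84 in Tg and 6.21 to 6.47 in WT cells at day 0.

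Ifnar1 had quantile-normalized levels of 8.12, 8.12 and 8.16 in Tg day 2 cells, against 8.28, 8.30 and 8.15 in Tg day 0 cells. In WT cells Ifnar1 had 7.93, 7.92 and 7.78 at day 2, against 9.10, 9.10 and 8.71 at day 0. On this scale the Tg days overlapped at their edges and the WT days were far apart, with changes of -0.11 ± 0.101 in Tg (adjusted p = 0.389) and -1.09 ± 0.101 in WT cells (adjusted p = 8.65e-07). On the deposited levels, where the Tg days given above do not overlap, the changes were -0.37 in Tg (adjusted p = 0.00701) and -1.29 in WT cells (adjusted p = 1.94e-07). With array medians subtracted they were 0.27 in Tg (adjusted p = 0.0503) and -0.68 in WT cells (adjusted p = 0.000183). The interaction was 0.93 ± 0.151 (adjusted p = 0.00877) and was called with every single array left out, at 0.84 to 1.07. The second Ifnar1 probe set was lower at day 2 in both genotypes, with changes of -3.01 in Tg and -3.75 in WT cells, and its interaction of 0.75 was not called (adjusted p = 0.322). The 2 probe sets of Ifnar1 thus gave changes of different size on stimulation.

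Ifi44l rose by 1.35 ± 0.207 in Tg cells (adjusted p = 0.000101), and its change of 0.08 ± 0.207 in WT cells was not called, both on quantile-normalized levels. On the deposited levels the WT change was -0.53. The interaction was 1.5 ± 0.286 (adjusted p = 0.0206), and on quantile-normalized levels 1.27 (adjusted p = 0.0499). It was not called without Tg day 2 replicate 1 or 2 or without WT day 2 replicate 1 or 3, at 1.35 to 1.52 (adjusted p = 0.0512 to 0.06). The second Ifi44l probe set rose in both genotypes, by 1.73 in Tg and 0.73 in WT cells, with an interaction of 1.19 that was not called (adjusted p = 0.148).

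Over the 39 genes, the mean deposited log2 level per array was 9.02, 9.16 and 8.99 in Tg day 2 cells and 8.56, 8.76 and 8.58 in WT day 2 cells. At day 0 it was 8.33, 8.12 and 8.18 in Tg cells and 8.15, 8.0 and 7.95 in WT cells. The genotypes did not overlap in this mean at day 2 and overlapped at day 0. The 11 genes with an ISRE core in their promoter that were measured had a median Tg minus WT difference of 0.41 at day 2 and 0.31 at day 0, with 3 and 2 called higher and none lower. Over all genes 1.24% were called higher at day 2 and 5.45% at day 0. The 18 measured genes whose windows lacked the core had medians of 0.26 at day 2 and 0.04 at day 0, with 2 and 3 called higher and 0 and 3 lower, and the difference between the groups was not tested.

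Genes around the response were taken from 3 further lists. Of 24 measured genes that produce or pass on the interferon signal, limma called none by genotype at day 2 (0 higher and 1 lower at an unadjusted p under 0.05), and 4 higher and 2 lower in Tg cells at day 0, against 5.45% and 4.90% of all genes. Higher at day 0 were Tlr7 (0.60 ± 0.112, adjusted p = 0.00507), an endosomal RNA receptor, the adaptor gene Myd88 (0.43), the kinase gene Ikbke (0.51) and Irf5 (0.33). Lower were Irf2 (-0.63 ± 0.112, adjusted p = 0.00381), which competes with IRF1 at its sites, and Ifng (-0.53). Ifnb1, the interferon beta gene, had mean deposited levels of 5.28 in Tg and 5.27 in WT cells at day 2 and of 5.62 in Tg and 5.60 in WT cells at day 0, and was called in no comparison. On quantile-normalized levels the interferon alpha genes Ifna2, Ifna4 and Ifna5 rose by 0.70, 0.35 and 0.49 in Tg cells. In WT cells they rose by 0.73, 0.48 and 0.46, all called. On the deposited levels Ifna4 and Ifna5 had lower means at day 2 than at day 0. Ifnb1 and these alpha genes were dim, with mean levels below the array medians. On stimulation 10 of the 24 were higher in Tg cells, against 35.2% of all genes, and 10 lower, against 23.3%, all on the quantile-normalized scale. In WT cells 9 were higher, against 36.0%, and 12 lower, against 24.0%, so that the counts of higher genes lay near the share over all genes. Jak1, the kinase bound to IFNAR2, changed by -1.35 in Tg and -1.60 in WT cells, and Ifngr1, a receptor chain for interferon gamma, by -1.31 in Tg and -1.45 in WT cells. Irf2 changed by -1.04 in Tg and -1.87 in WT cells, and its interaction of 0.81 ± 0.159 was the 1 call of this list (adjusted p = 0.0228).

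Of 14 measured inhibitors of the pathway, 1 was higher in Tg cells at day 2, against 1.24% of all genes, which was Trim30a (0.96 ± 0.207, adjusted p = 0.0341). At day 0 Socs3 (-0.69 ± 0.128, adjusted p = 0.00472) was the 1 called lower, against 4.90% of all genes. On stimulation 5 of the 14 were higher in Tg cells, against 35.2% of all genes, and 7 lower, against 23.3%. In WT cells 4 were higher, against 36.0%, and 8 lower, against 24.0%, so that the counts of higher inhibitors lay near or below the share over all genes. Socs1, the suppressor that blocks the receptor's kinases, rose by 2.41 in Tg and 2.40 in WT cells. Rnf125, a ubiquitin ligase that targets RIG-I for breakdown, fell by 4.11 in Tg cells and fell by 3.30 in WT cells on the log2 scale. Irf2bp2, a corepressor that binds IRF2, fell by 2.92 in Tg cells and fell by 2.84 in WT cells.

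Of 48 other interferon-stimulated genes measured, 6 were higher and 1 lower in Tg cells at day 2, against 1.24% and 1.10% of all genes. At day 0, 11 were higher and 3 lower, against 5.45% and 4.90% of all genes. The largest at day 2 were Trim34a (1.25 ± 0.103), a TRIM protein gene, and Ifit1bl1 (1.00 ± 0.183), an IFIT family member. Against them stood Gbp2, an interferon-induced GTPase of host defence, with levels of 9.59 ± 0.0153 in Tg and 12.01 ± 0.0346 in WT cells at day 2 (SD, n = 3 each), a difference of -2.42 ± 0.112 (adjusted p = 5.23e-08). At day 0 the largest were Ifitm2 (1.57 ± 0.267), Cxcl9 (1.56 ± 0.152), the T cell chemoattractant, and Ifitm1 (1.51 ± 0.151). Lower at day 0 were Gbp2 (-0.60), Tap1 (-0.32), the antigen peptide transporter, and Pml (-0.30), the nuclear body protein. On stimulation 23 of the 48 were higher in Tg cells, against 35.2% of all genes, and 14 lower, against 23.3%. In WT cells 23 were higher, against 36.0%, and 13 lower, against 24.0%. Gbp2 rose by 2.97 in Tg and 4.58 in WT cells, with an interaction of -1.82 ± 0.158 (adjusted p = 7.8e-05). Mlkl, the executor of necroptosis, rose by 3.53 in Tg and 3.37 in WT cells. The change of Ifitm2 (-1.78), Cxcl9 (-1.58), Ifitm1 (-1.27) and Slfn1 (-1.13) was likewise more negative in Tg cells, and that of Pml more positive (0.48). The myeloid, granulocyte and erythroid markers given above moved in the same arrays as Ifitm1, Ifitm2 and Cxcl9 at day 0, and their part was not tested.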

How the data were processed

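The authors deposited 1 log2 value per probe set and array. The submitters' processing notes name RMA and affy without versions. Whether the 12 arrays shared 1 normalization run was not stated in any source used. The 64 control probe sets of the array were dropped and 45037 tested: 34945 carried 1 gene symbol in the array annotation, 932 several and 9160 none.

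One linear model with a mean for each group was fitted to all 12 arrays in limma 3.58.1 (R 4.3.3; 8 residual and 4.71 prior degrees of freedom), and 2-sided p-values were adjusted over all probe sets by Benjamini and Hochberg. Genotype differences and the interaction were fitted on the deposited values, and changes on stimulation on values quantile-normalized over the 12 arrays (4.55 prior degrees of freedom). The brightest probe set stood for a gene. The procedure was tested on simulated data. Apart from the shared probe set of Isg15 and Gm9706, the expression of listed genes that no probe set reads alone was not analysed here. The promoter search included Isg15 and Ifi44. The members and lists were chosen with earlier results of these data known, and lists are described by counts and medians with no test of their own.

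Values per array are given for genes called by genotype or in the interaction at any of their probe sets, for the 6 largest called rises and 6 largest called falls on stimulation, and for Irf7, Irf9, Stat2, Mx1, Isg15 and the receptor genes, and the up to 3 largest changes are named for each further list. Further genes named from those lists (Myd88, Ikbke, Irf5, Ifnb1, Ifna2, Ifna4, Ifna5, Tap1, Pml, Slfn1) were chosen after their values were seen.

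Replicate numbers were checked as pairs by correlating deviations from the group means. For arrays of the same number r was 0.33, 0.101 and 0.178 between the stimulated genotypes, and 0.318, 0.175 and 0.19 for WT stimulation. For arrays of different numbers r was -0.26 to 0.0574 and -0.228 to 0.0976 in these comparisons. The reported fits nevertheless took no pairing into account, and the replicate number entered as a block only in an alternative fit. For arrays of the same number r was 0.0778, 0.0701 and 0.297 between the unstimulated genotypes, and 0.0689, -0.16 and 0.115 for Tg stimulation. There, arrays of different numbers gave -0.193 to 0.112 and -0.183 to 0.159. The labels name no pairing, although replicate 3 was the array low in Y-linked Eif2s3y in every group. Alternatives were the scaling, the block, a filter on dim probe sets, an intensity trend, array weights, the 6 compared arrays alone, any probe set of a gene, and leaving out each array.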

Additional observations from a re-analysis of the deposited data

Results flagged for a closer look

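The change of Ifi44l on stimulation differed between the genotypes, being more positive in Tg than in WT cells by 1.5 on the log2 scale (limma interaction, adjusted p = 0.0206). The change of Ifnar1 on stimulation also differed, by 0.93 (adjusted p = 0.00877). In neither gene did the other probe sets pass the same test. No group had enough arrays for a test of single outlying arrays.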

How the results depend on the processing

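Among the counts of called genes under alternative settings, 132 lay within 1.5 times the reported count, 5 above it and 13 below it. With array weights the genes called higher in Tg cells were 13 at day 2 and 10 at day 0, and 6 had a called positive interaction (also Ddx58, Dtx3l, Parp14 and Sp100). The weights raised the higher calls over all probe sets as well, from 391 to 831 at day 2 and from 2013 to 4199 at day 0. Positive interaction calls over all probe sets went from 259 to 955. With only the 6 compared arrays, 1 gene was called lower in Tg cells at day 0. With array medians subtracted 1 gene was called lower on stimulation in Tg and 1 in WT cells, and on the deposited values 12 were called lower in WT cells. Leaving out single arrays gave 4 to 7 genes called higher in Tg cells at day 2 (4 without WT replicate 1 or 3, 5 without Tg replicate 2), 4 to 6 higher and 2 to 5 lower at day 0 (2 lower without WT replicate 1 or 2 or Tg replicate 2), and 1 to 5 with a called positive interaction (1 without WT day 2 replicate 1 or 3 or Tg day 2 replicate 1 or 2, 5 without WT day 0 replicate 3). Among single genes, 10 values had the opposite sign with a call under the reported or the alternative setting, and 114 more had it with a call under neither. On the deposited values the WT changes on stimulation were -0.51 for Ifit3, -0.48 for Rsad2, -0.53 for Ifi44l and -0.51 for Stat2. With array medians subtracted the Tg changes were 0.34 for Ddx58, 0.14 for Irf1, 0.63 for Trim25 and 0.32 for Sp100, and the WT changes 0.27 for Irf9 and 0.14 for Trim25. With the replicate number as a block Ifih1 was called at day 0 (0.46, adjusted p = 0.0169), and beyond this gene and Usp18, Stat2, Sp100 and Ifi27 the block changed no call of the 39 genes in the genotype and stimulation comparisons. Over all probe sets, day 0 gave 2013 higher and 2243 lower calls, and 1550 and 2719 with array medians subtracted. The causes were not tested. With 3 arrays per group small differences could go uncalled, and dim probe sets carry little signal over background.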
